A study of Mus musculus with 8 samples.

Results

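The genes described here encode the breakdown of the branched-chain amino acids (leucine, isoleucine and valine), the propionate path that some of their carbon enters, the use of ketone bodies, and KLF15, a transcription factor. They were chosen by name, as the rows of the expression table whose Ensembl identifiers map to the listed symbols in GENCODE mouse M21. The choice was made with earlier results of these data known. Of 31 names listed, 30 matched a gene, among 35275 genes in the table, and 1 (Hadhb-dummy) matched none. Of the 30 genes, 29 passed the filter on low values, and Bcat1 did not. RNA was sequenced from mouse heart ventricles, in 4 libraries labelled WT and 4 labelled RBX2iCKO. RBX2iCKO is an adult knockout of Rbx2 made with Mer-Cre-Mer, a Cre recombinase that tamoxifen activates and that the cardiomyocyte αMHC promoter drives. RBX2 (also SAG), the product of Rnf7, is a RING protein that works with cullin 5 in ubiquitin ligases. All 8 samples carry the label tamoxifen, so the controls received it too. The labels give no age, sex, strain or interval after tamoxifen, and do not say whether each library comes from a mouse of its own. P-values therefore reflect how far these samples spread, and that spread may be technical. Coordinates are on mm10. Values are FPKM (fragments counted per kilobase of a gene, relative to the library's total), listed throughout from replicate 1 to replicate 4. A difference is the RBX2iCKO mean minus the WT mean of log2(FPKM + 1).

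Branched-chain amino acids lose their amino group to a transaminase, and the resulting keto acids are then oxidised by the mitochondrial branched-chain keto acid dehydrogenase complex, BCKDH. That step commits the carbon to breakdown, and it is switched off by a kinase and on by a phosphatase. Separate enzymes then take leucine to acetoacetate and acetyl-CoA, valine to propionyl-CoA, and isoleucine to both acetyl-CoA and propionyl-CoA. The heart oxidises these amino acids and, when they are supplied, ketone bodies, which enter through OXCT1 and ACAT1. In mouse heart and skeletal muscle KLF15 is known to raise transcripts of branched-chain amino acid breakdown.

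The targeted gene, Rnf7, averaged 37.3 ± 2.38 FPKM in the WT libraries and 7.15 ± 0.28 FPKM in the knockout libraries (SD over 4 of each, limma adjusted p = 5.8e-07). Esr1, the estrogen receptor gene whose ligand-binding part Mer-Cre-Mer carries, averaged 0.757 ± 0.883 and 331 ± 51.5 FPKM. By these values, loss of Rbx2 and presence of the Cre transgene cannot be told apart. The sample titles begin with MCM, the initials of Mer-Cre-Mer, in both groups, although Esr1 was high only in RBX2iCKO. Titles and Esr1 levels thus differ on whether the WT samples carry the transgene. Counted fragments per library, read from the FPKM denominators, ran from 18513924 to 22558094 in WT and from 18758692 to 23043686 in RBX2iCKO. Mitochondrially encoded transcripts took 22.5% to 25.0% of the fragments in WT and 14.6% to 18.9% in RBX2iCKO. FPKM is a share of the library, and as deposited the median of the 13050 genes tested lay 0.21 above 0, with 4374 genes higher and 459 lower in RBX2iCKO. After median-of-ratios scaling, which divides each library by its median gene ratio to the other libraries, that median was 0.02, with 1146 genes higher and 1419 lower. Both scales are given below, since the choice between them decides how many members passed. The labels name cardiomyocytes, while the protocol describes minced ventricle. The 10 cardiomyocyte markers summed to 33883 to 36410 FPKM in WT and 29125 to 35949 FPKM in RBX2iCKO. The 8 fibroblast markers summed to 348 to 542 FPKM in WT and 806 to 1386 FPKM in RBX2iCKO, and no marker of either list was at 0 in any library. In whole ventricle, fewer cells of a type and less RNA per cell cannot be told apart, and the part of cell composition in the results below was not tested.

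Transcripts of this catabolic group were lower in RBX2iCKO hearts or did not pass the test, and none was higher. Because the list was chosen with earlier results of these data known, the all-gene shares below are a background and not an independent test. As deposited, 12 of 29 members were lower (limma, Benjamini-Hochberg adjusted p under 0.05), against 3.52% of all genes tested. None was higher, also at an unadjusted p under 0.05, against 33.5% of all genes past the adjusted threshold. Limma voom on fragments recovered from the FPKM also called 12 lower and none higher, against 3.58% and 34.3% of all genes. After scaling, 24 of 29 were lower, against 10.9% of all genes, and none was higher, against 8.78%. The median difference was -0.21 as deposited and -0.46 after scaling, where the medians of all genes were 0.21 and 0.02. The 12 members lower as deposited were also lower after scaling: Bckdha, Bckdhb, Dbt, Bckdk, Ppm1k, Ivd, Mccc1, Auh, Aldh6a1, Pcca, Mmab and Acat1. Acad8, Bdh1, Klf15, Mcee and Prodh passed on neither scale. Effects were modest, with individual members from -0.53 to 0.14 as deposited and from -0.78 to -0.10 after scaling. As deposited, all 4 RBX2iCKO libraries lay below all 4 WT libraries in 12 members, against 3.79% of all genes, and above them in none, against 34%. The difference was below 0 for 26 of 29 members as deposited, against 18.8% of all genes, and for 29 after scaling, against 47.5%.

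The count as deposited depended on which libraries were kept. It was 6 without WT replicate 1, 7 without WT replicate 2 and 6 without WT replicate 3. Without RBX2iCKO replicates 1 and 2 in turn it was 9 and 8, and over all 8 omissions it ran from 6 to 13. All genes lower, 459 with every library, also fell, to 338, 340 and 345 without WT replicates 1, 2 and 3 in turn. Acat1, Aldh6a1, Bckdk, Mmab and Pcca stayed lower whichever library was left out. The sample titles fall in a lower number series (WT replicates 1 and 2, RBX2iCKO replicate 1) and a higher one (the other libraries). The series are thus not balanced between the groups. With the number series in the sample titles as a covariate, 15 members were lower as deposited. After scaling the count ran from 22 to 26 over the 8 omissions, and 21 members stayed lower throughout.

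**Figure D1:**
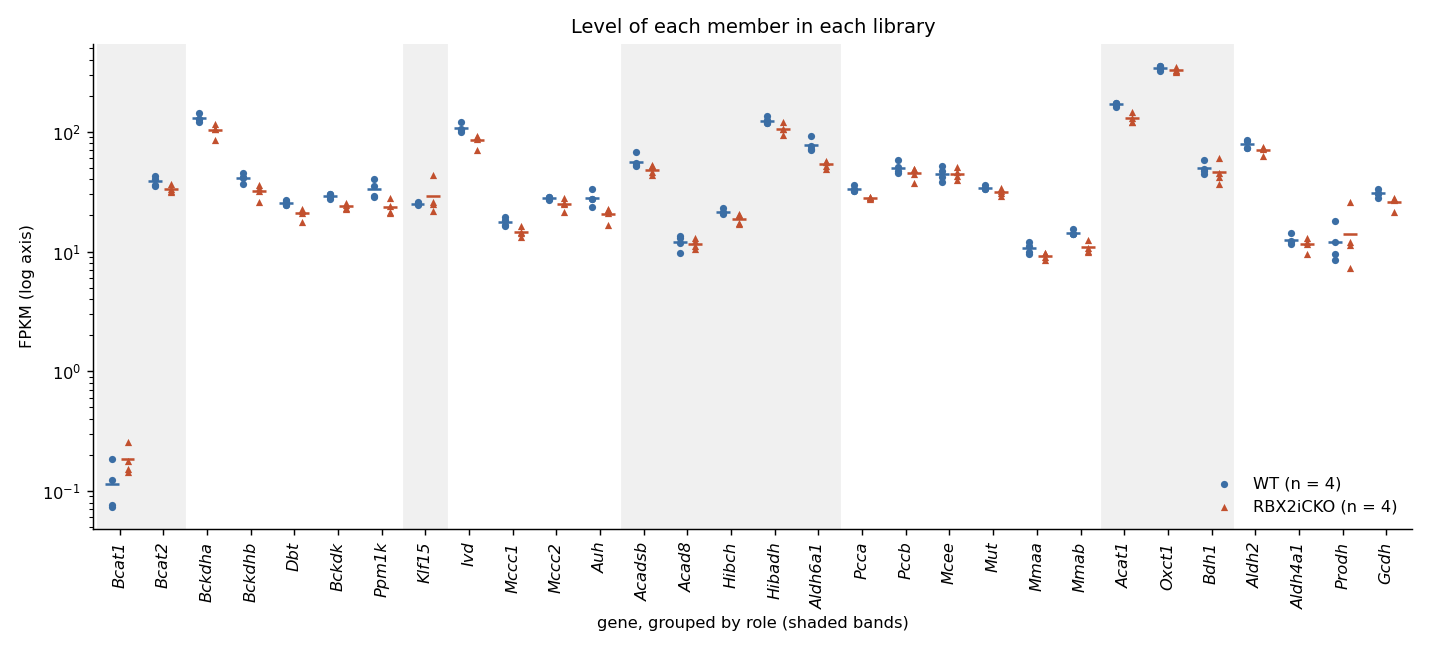
Level of each of the 30 genes in each library (FPKM, log axis), with WT as circles, RBX2iCKO as triangles and a bar at each group mean (n = 4 each); shaded bands group genes by role. Oxct1 and Acat1 were the most abundant, at 341 and 169 FPKM in WT, and Bcat1 the least, at 0.114 FPKM.

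**Figure D2:**
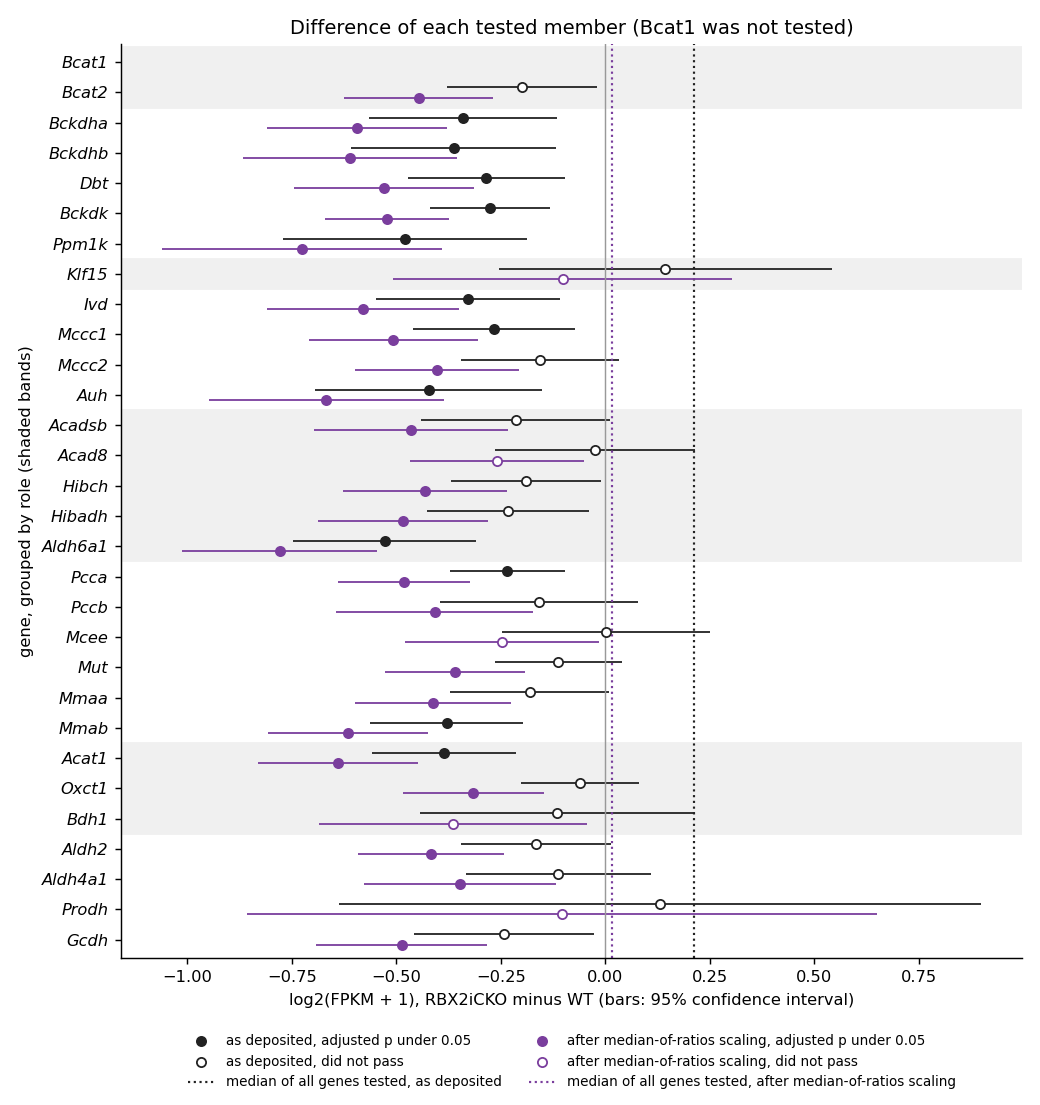
Log2 difference of each tested member with its 95% confidence interval, as deposited (black) and after median-of-ratios scaling (purple); filled points passed an adjusted p of 0.05, and dotted lines mark the median of all genes tested, 0.21 and 0.02. Filled black points number 12 and filled purple points 24, all below 0.

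Transamination, the first step, is carried out by the mitochondrial enzyme BCAT2 in muscle and by the cytosolic BCAT1 in brain and some other tissues. Bcat2 (ENSMUSG00000030826, chr7:45570153-45589711, plus strand) stood at 40.1, 35.6, 42.7 and 35.6 FPKM in the WT libraries and 31.6, 32.3, 36.3 and 33.2 FPKM in RBX2iCKO. The RBX2iCKO libraries sat in the lower part of the range, and the groups overlapped. The difference of -0.20 (SE 0.08, limma adjusted p = 0.0765) did not pass as deposited, and it was -0.45 (adjusted p = 0.00579) after scaling. Bcat1 was at 0.0736 to 0.183 FPKM in WT and 0.144 to 0.259 FPKM in RBX2iCKO, which is 12 to 38 recovered fragments a library, and it was below the filter.

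All 5 genes of the BCKDH complex, its kinase and its phosphatase fell, on both scales, with a median of -0.34 as deposited and -0.59 after scaling. Bckdha encodes the E1 alpha subunit, on which the kinase and phosphatase act (ENSMUSG00000060376, chr7:25629946-25658981, minus strand). Its levels were 129, 120.3, 144 and 129 FPKM in the WT libraries and 85.4, 117, 105 and 106 FPKM in RBX2iCKO. All RBX2iCKO libraries lay below all WT libraries, with replicate 1 the lowest. The means were 131 ± 9.998 and 103 ± 13.1 FPKM (mean ± SD, n = 4), a difference of -0.34 (SE 0.10, limma adjusted p = 0.0279). Bckdhb, the E1 beta subunit (ENSMUSG00000032263, chr9:83925145-84124240, plus strand), measured 40.9, 41.8, 45.5 and 36.7 FPKM in the WT libraries and 25.7, 36.2, 32.2 and 33.9 FPKM in RBX2iCKO. It followed the alpha subunit, again without overlap and with replicate 1 lowest. Its difference was -0.36 (SE 0.11, limma adjusted p = 0.0299), with RBX2iCKO at 77.6% of the WT mean. The ratio of Bckdha to Bckdhb, a pair chosen after the values were seen, was 3.18 ± 0.259 in WT and 3.24 ± 0.0789 in RBX2iCKO, with overlapping groups.

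Dbt, the E2 core that transfers the acyl group (ENSMUSG00000000340, chr3:116513070-116549981, plus strand), was measured at 24.3, 26.4, 26.8 and 24.6 FPKM in the WT libraries and 21.1, 17.8, 22.5 and 21.9 FPKM in RBX2iCKO. Here replicate 2, not replicate 1, was the lowest RBX2iCKO library, and the groups did not overlap. The difference was -0.28 (SE 0.08, limma adjusted p = 0.0269). Dld encodes the E3 subunit, which BCKDH shares with pyruvate and 2-oxoglutarate dehydrogenases. It fell from 201 ± 4.40 to 164 ± 15.8 FPKM, a difference of -0.30 (SE 0.07, limma adjusted p = 0.0153). Every subunit gene of the complex was therefore lower.

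The opposing regulators of the complex fell together. Bckdk, the kinase that inactivates E1 alpha (ENSMUSG00000030802, chr7:127904082-127910221, plus strand), stood at 27.4, 28.6, 30.1 and 30.1 FPKM in the WT libraries and 23.2, 25.2, 22.5 and 24.3 FPKM in RBX2iCKO. Replicates were close in both groups, and the gap between the groups was clear. The difference was -0.28 (SE 0.06, limma adjusted p = 0.0118). Ppm1k, the mitochondrial phosphatase that reactivates the complex (ENSMUSG00000037826, chr6:57506502-57535468, minus strand), reached 35.6, 40.5, 29.1 and 28.8 FPKM in the WT libraries and 21.6, 20.9, 23.9 and 28.3 FPKM in RBX2iCKO. WT spread widely, and the highest RBX2iCKO library, replicate 4, lay just under the lowest WT library. The difference was -0.48 (SE 0.13, limma adjusted p = 0.0204), the second most negative of the group after Aldh6a1. The ratio of kinase to phosphatase transcript, also chosen after the values were seen, was 0.889 ± 0.175 in WT and 1.02 ± 0.152 in RBX2iCKO, and the groups overlapped.

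In the leucine branch, 3 of 4 genes were lower as deposited and 4 of 4 after scaling, with medians of -0.30 and -0.54. Ivd, isovaleryl-CoA dehydrogenase (ENSMUSG00000027332, chr2:118861954-118882909, plus strand), had 105, 104, 121 and 99.7 FPKM in the WT libraries and 71.1, 87.8, 90.02 and 92.97 FPKM in RBX2iCKO. The groups were separate, with replicate 1 lowest in RBX2iCKO and replicate 3 highest in WT. The difference was -0.33 (SE 0.10, limma adjusted p = 0.0288). Auh, the hydratase that acts on methylglutaconyl-CoA (ENSMUSG00000021460, chr13:52835119-52929681, minus strand), had 33.3, 27.5, 27.6 and 23.5 FPKM in the WT libraries and 16.7, 21.05, 22.1 and 22.5 FPKM in RBX2iCKO. The groups did not overlap, although WT replicate 4 lay close to the RBX2iCKO libraries. The difference was -0.42 (SE 0.12, limma adjusted p = 0.025).

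MCCC1 and MCCC2 form methylcrotonyl-CoA carboxylase, as the biotin-carrying alpha subunit and the beta subunit. Mccc1 (ENSMUSG00000027709, chr3:35959312-36000678, minus strand) was at 18.4, 16.8, 19.5 and 16.3 FPKM in the WT libraries and 13.1, 14.2, 14.6 and 16.4 FPKM in RBX2iCKO. RBX2iCKO replicate 4 slightly exceeded the lowest WT library, so the groups overlapped. The difference was -0.27 (SE 0.09, limma adjusted p = 0.0378), and it passed in 2 of the 8 fits that left out a library. Mccc2 (ENSMUSG00000021646, chr13:99948530-100015639, minus strand) was at 28.3, 26.9, 28.6 and 27.5 FPKM in the WT libraries and 21.3, 25.5, 25 and 28.2 FPKM in RBX2iCKO. Its RBX2iCKO replicate 4 lay within WT. The difference of -0.16 (SE 0.08, limma adjusted p = 0.163) did not pass, and after scaling it was -0.40 (adjusted p = 0.0133). The ratio of Mccc1 to Mccc2 overlapped between the groups.

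The isoleucine and valine branches were mixed as deposited, with 1 of 5 genes lower, and 4 of 5 were lower after scaling. Aldh6a1 encodes methylmalonate semialdehyde dehydrogenase, which ends the valine branch at propionyl-CoA (ENSMUSG00000021238, chr12:84430717-84451004, minus strand). It measured 71.1, 76.1, 93.1 and 71.5 FPKM in the WT libraries and 48.8, 51.9, 57.4 and 56.1 FPKM in RBX2iCKO. Every RBX2iCKO library was well below every WT library. The means were 77.96 ± 10.4 and 53.5 ± 3.96 FPKM (mean ± SD, n = 4), so RBX2iCKO stood at 68.7% of WT. The difference of -0.53 (SE 0.10, limma adjusted p = 0.00505) was the most negative of the 29 members, and it was -0.78 (adjusted p = 0.00221) after scaling.

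The enzyme before it in the valine branch is HIBADH, which oxidises hydroxyisobutyrate. Hibadh (ENSMUSG00000029776, chr6:52546228-52640389, minus strand) was at 125, 119, 135 and 118 FPKM in the WT libraries and 93.2, 105, 105 and 120.1 FPKM in RBX2iCKO. RBX2iCKO replicate 4 reached into the WT range. The difference of -0.23 (SE 0.09, limma adjusted p = 0.0593) did not pass as deposited, and it was -0.48 (adjusted p = 0.00712) after scaling. The ratio of Aldh6a1 to Hibadh was 0.626 ± 0.0499 in WT and 0.508 ± 0.0352 in RBX2iCKO, without overlap, for a pair chosen after the values were seen. Hibch, the hydrolase that makes hydroxyisobutyrate, had a difference of -0.19 (adjusted p = 0.0881) as deposited and -0.43 (adjusted p = 0.01) after scaling. For Acadsb, the dehydrogenase of the isoleucine branch, the values were -0.21 (adjusted p = 0.116) and -0.46 (adjusted p = 0.0144). Acad8, isobutyryl-CoA dehydrogenase of the valine branch, gave -0.02 (adjusted p = 0.863) as deposited, with an interval of -0.26 to 0.21. It also did not pass after scaling, at -0.26 (adjusted p = 0.0792). These 4 genes had overlapping groups as deposited.

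Of the propionate path, 2 of 6 genes were lower as deposited, Pcca and Mmab, and 5 of 6 after scaling. PCCA and PCCB form propionyl-CoA carboxylase, with biotin on the PCCA subunit. Pcca (ENSMUSG00000041650, chr14:122534324-122891100, plus strand) was at 32.1, 33.6, 35.9 and 31.8 FPKM in the WT libraries and 28.4, 28.1, 27.3 and 28.8 FPKM in RBX2iCKO. RBX2iCKO values were tightly grouped, all below WT. The difference was -0.23 (SE 0.06, limma adjusted p = 0.018). Pccb (ENSMUSG00000032527, chr9:100982032-101034898, minus strand) was at 50.5, 46.97, 57.95 and 45.7 FPKM in the WT libraries and 37.6, 49.1, 44.5 and 48.7 FPKM in RBX2iCKO. The groups overlapped, and 2 of 4 RBX2iCKO libraries exceeded the lowest WT values. The difference of -0.16 (SE 0.11, limma adjusted p = 0.248) did not pass as deposited.

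MMAB attaches the adenosyl group to cobalamin, the cofactor of methylmalonyl-CoA mutase. Mmab (ENSMUSG00000029575, chr5:114431034-114444060, minus strand) was at 15.4, 13.97, 13.9 and 14.04 FPKM in the WT libraries and 10.1, 10.8, 9.92 and 12.4 FPKM in RBX2iCKO. Replicate 1 was the highest WT library, and all RBX2iCKO libraries lay below WT. The difference was -0.38 (SE 0.08, limma adjusted p = 0.0087), with RBX2iCKO at 75.4% of the WT mean. Mut, the mutase itself, did not pass as deposited at -0.11 (adjusted p = 0.206), and was lower after scaling at -0.36 (adjusted p = 0.011). Mmaa, which delivers and protects the cofactor, gave -0.18 (adjusted p = 0.116) and -0.41 (adjusted p = 0.00998). Mcee, the epimerase before the mutase, was at 99.9% of the WT mean, with a difference of 0.00 (adjusted p = 0.989) and an interval of -0.25 to 0.25. After scaling it was -0.25 (adjusted p = 0.123).

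Of the 3 genes of ketone body use, 1 was lower as deposited and 2 after scaling. Acat1, mitochondrial acetoacetyl-CoA thiolase, cleaves acetoacetyl-CoA in ketone use and also ends the isoleucine branch (ENSMUSG00000032047, chr9:53580522-53610382, minus strand). Its levels were 173, 169, 174 and 162 FPKM in the WT libraries and 121, 129.9, 121 and 148 FPKM in RBX2iCKO. The groups were well apart, with RBX2iCKO replicate 4 closest to WT. The means were 169 ± 5.37 and 129.8 ± 12.7 FPKM (mean ± SD, n = 4), RBX2iCKO at 76.6% of WT. The difference was -0.39 (SE 0.08, limma adjusted p = 0.00663), and -0.64 (adjusted p = 0.00221) after scaling.

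Oxct1, the CoA transferase that activates acetoacetate and commits it to oxidation (ENSMUSG00000022186, chr15:4026383-4155344, plus strand), was the most abundant member. It measured 333, 354, 323 and 354 FPKM in the WT libraries and 327, 319.9, 315 and 346 FPKM in RBX2iCKO. The groups overlapped broadly. The difference was -0.06 (SE 0.06, limma adjusted p = 0.452) with an interval of -0.20 to 0.08 as deposited, and -0.32 (adjusted p = 0.019) after scaling. The ratio of Oxct1 to Acat1, which any scaling of a library leaves as it is, was 1.92, 2.10, 1.86 and 2.19 in WT and 2.71, 2.46, 2.60 and 2.34 in RBX2iCKO. All RBX2iCKO ratios exceeded all WT ratios, for a pair chosen after the values were seen. Bdh1, which converts hydroxybutyrate to acetoacetate, was at 44.3, 46.9, 48.9 and 58.1 FPKM in the WT libraries and 36.7, 45.4, 60.8 and 42.1 FPKM in RBX2iCKO. RBX2iCKO replicate 3 was the highest of all 8 libraries and replicate 1 the lowest. The difference was -0.11 (adjusted p = 0.546), with an interval of -0.44 to 0.21, and -0.36 (adjusted p = 0.105) after scaling.

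Of the remaining enzymes, none of 4 was lower as deposited and 3 of 4 were lower after scaling. Gcdh, glutaryl-CoA dehydrogenase of lysine and tryptophan breakdown, was at 30.2, 27.97, 33.5 and 30.7 FPKM in the WT libraries and 21.3, 27.8, 27.4 and 26.7 FPKM in RBX2iCKO. The groups did not overlap, and RBX2iCKO replicate 1 was far below its group. The difference of -0.24 (SE 0.10, limma adjusted p = 0.0734) did not pass as deposited, and it was -0.49 (adjusted p = 0.00711) after scaling. Aldh2, the mitochondrial aldehyde dehydrogenase that clears acetaldehyde and lipid-derived aldehydes, gave -0.17 (adjusted p = 0.124) and -0.42 (adjusted p = 0.00704). Aldh4a1, which finishes proline oxidation to glutamate, gave -0.11 (adjusted p = 0.376) and -0.35 (adjusted p = 0.0407). Prodh, which begins proline oxidation, was at 12.05, 8.44, 18.1 and 9.48 FPKM in the WT libraries and 7.24, 11.2, 26.03 and 12.04 FPKM in RBX2iCKO. Replicate 3 was the highest library of each group, and the groups overlapped widely. The difference was 0.13 (SE 0.34, limma adjusted p = 0.774), with an interval of -0.64 to 0.90.

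Klf15 (ENSMUSG00000030087, chr6:90462576-90475238, plus strand) was at 24.9, 25.8, 25.2 and 24.5 FPKM in the WT libraries and 21.6, 24.8, 43.2 and 25.7 FPKM in RBX2iCKO. WT libraries were nearly equal. RBX2iCKO replicates 2 and 4 lay within the WT range, replicate 1 below it and replicate 3 far above it. The difference was 0.14 (SE 0.18, limma adjusted p = 0.531), with an interval of -0.25 to 0.54, and -0.10 (adjusted p = 0.731) after scaling. Without RBX2iCKO replicate 3 it was -0.06 (limma adjusted p = 0.534) as deposited, and -0.31 (limma adjusted p = 0.032) after scaling. Leaving out this library thus turned the sign as deposited, without a call, and brought a call after scaling, without a turn of sign. Without RBX2iCKO replicate 1 the scaled difference was 0.015. RBX2iCKO replicate 3 was the highest of its group for 9 of the 29 tested members, Prodh and Bdh1 among them, and replicate 4 for 13. Of the 6 listed genes that glucocorticoids induce in many tissues, replicate 3 was the highest RBX2iCKO library for 6. The share of all genes with replicate 3 highest was not computed. Pairs with replicate 3 differed most within the group (chi-square per degree of freedom 43.5 to 63.3, against 20.4 to 31.0). Fkbp5 was at 25.2 FPKM in replicate 3 and at 8.38 to 10.5 FPKM in the other RBX2iCKO libraries, a gene singled out after its values were seen. Of 12 clock genes, replicate 3 was the highest for 4 and the lowest for 4, so that list showed no common position of this library. Between the groups, 2 of 6 glucocorticoid-induced genes and 4 of 12 clock genes were higher as deposited, both close to the 33.5% of all genes, and none was higher after scaling. The part of these genes' regulators in the Klf15 level was not tested.

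**Figure D3:**
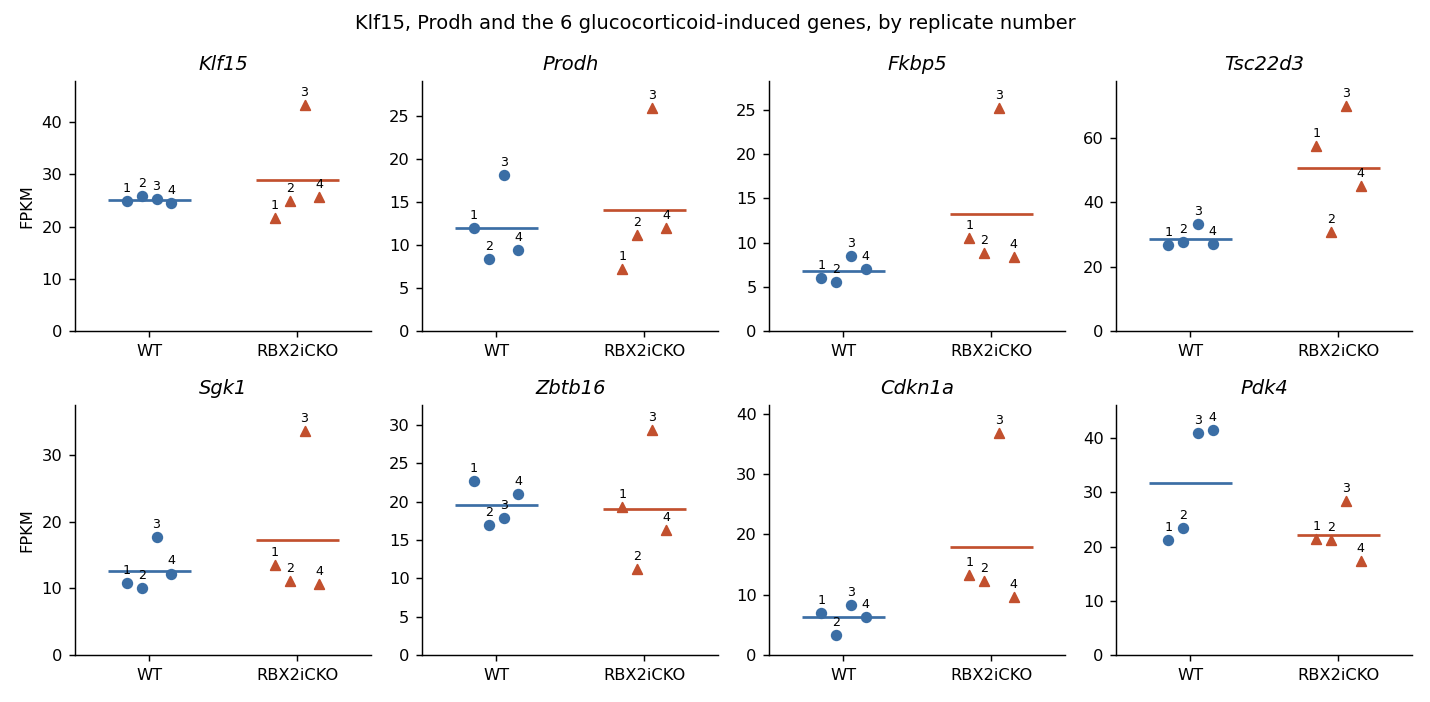
FPKM of Klf15, Prodh and the 6 listed glucocorticoid-induced genes in each library, with the replicate number above each point and a bar at each group mean (n = 4). Replicate 3 is the highest RBX2iCKO library in all 8 panels, at 43.2 FPKM for Klf15 and 26.03 FPKM for Prodh, and 2 WT libraries exceed it for Pdk4. Over the 29 tested members, replicate 3 is the highest RBX2iCKO library for 9.

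Promoters were read because KLF15 is a DNA-binding regulator of this pathway and Klf15 itself is among the genes. The windows are the 250 bases before a RefSeq gene start (GRCm38.p6), read 5′ to 3′ on the gene's strand, and 26 of 30 members had at least 1, giving 33 windows. The CCACCC motif that KLF factors bind, searched on both strands, was in 9 of the 33 windows (8 genes) and in 28.1% of all 32851 windows. The E-box CACGTG, to which clock and other factors bind, was in 2 of 33 windows and in 6.02% of all windows. The motif AAGGTCA of estrogen-related receptors was in none of the 33 and in 4.08% of all. None of the windows shown holds more than 1 kind of motif. The window of Klf15 (chr6:90462326-90462575, plus strand) is shown because it holds a pair of E-boxes, in capitals. Those of Mccc1 (chr3:36000679-36000928, minus strand) and Mccc2 (chr13:100015640-100015889, minus strand) are shown because the paired subunits differ, Mccc1 having a CCACCC and Mccc2 an E-box, in capitals. A window of Bcat2 (chr7:45569903-45570152, plus strand) is shown as one with no match. A match describes the letters only, and no match says only that the letters are not in that window.
Klf15 promoter: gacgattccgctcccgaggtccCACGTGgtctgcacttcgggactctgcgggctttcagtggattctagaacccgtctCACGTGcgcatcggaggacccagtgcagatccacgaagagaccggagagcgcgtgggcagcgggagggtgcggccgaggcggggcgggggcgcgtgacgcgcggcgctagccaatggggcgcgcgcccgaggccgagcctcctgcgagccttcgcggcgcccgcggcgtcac
Mccc1 promoter: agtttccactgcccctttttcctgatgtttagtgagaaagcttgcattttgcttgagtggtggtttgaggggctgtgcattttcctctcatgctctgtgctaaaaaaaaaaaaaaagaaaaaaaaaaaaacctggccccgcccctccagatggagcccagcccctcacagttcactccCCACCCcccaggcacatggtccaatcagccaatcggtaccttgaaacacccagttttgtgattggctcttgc
Mccc2 promoter: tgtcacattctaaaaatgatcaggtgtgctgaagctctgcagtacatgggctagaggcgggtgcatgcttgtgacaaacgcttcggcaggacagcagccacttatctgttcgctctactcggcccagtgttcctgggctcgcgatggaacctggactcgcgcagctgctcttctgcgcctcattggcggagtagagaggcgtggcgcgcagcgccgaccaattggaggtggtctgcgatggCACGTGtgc
Bcat2 promoter: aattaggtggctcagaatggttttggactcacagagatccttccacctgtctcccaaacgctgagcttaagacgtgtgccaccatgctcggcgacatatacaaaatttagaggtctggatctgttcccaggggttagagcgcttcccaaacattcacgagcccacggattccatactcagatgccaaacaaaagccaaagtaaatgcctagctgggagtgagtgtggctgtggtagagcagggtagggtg

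The libraries were not equally affected. The median member lay at -0.37, -0.19, -0.15 and -0.11 from the WT mean in RBX2iCKO replicates 1 to 4, and between -0.06 and 0.10 in the WT libraries. RBX2iCKO replicate 1 was thus the lowest, and it was the lowest of its group for 21 of 29 members. Among RBX2iCKO libraries it alone had a title number of the lower series. It also had the highest summed fibroblast markers of the 8 libraries, 1386 FPKM, and the lowest summed cardiomyocyte markers, 29125 FPKM. Without it, 9 members were lower as deposited and 22 after scaling. Among WT libraries, replicate 3 was the highest for 18 of 29 members and replicate 4 the lowest for 14. All 8 fibroblast markers were higher as deposited, against 33.5% of all genes, and 7 after scaling, against 8.78%. Of 10 cardiomyocyte markers, 2 were lower as deposited, against 3.52% of all genes, and 3 after scaling, against 10.9%. Their difference was below 0 for 5 of 10 as deposited, against 18.8% of all genes, and for 10 after scaling, against 47.5%. Of 8 endothelial markers, 4 were higher as deposited, and of 9 macrophage markers 2, against 33.5% of all genes, and none of either list after scaling. Summed macrophage markers were also highest in RBX2iCKO replicate 1, at 402 FPKM, where the other libraries had 121 to 266 FPKM. Their part in the members' differences was not tested.

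**Figure D4:**
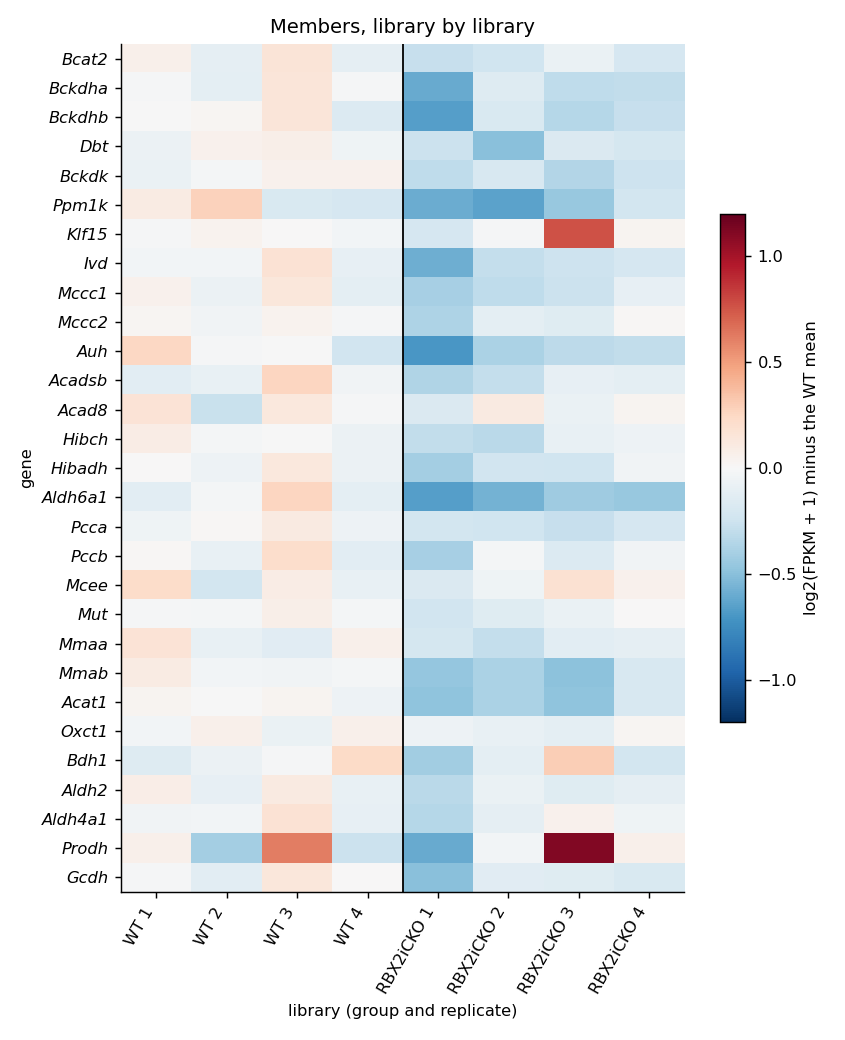
Difference of each tested member (rows, in order of role) from its WT mean in each library (columns), on the log2(FPKM + 1) scale, blue below and red above. The column of RBX2iCKO replicate 1 is the bluest, with a median of -0.37, and red cells in RBX2iCKO replicate 3 are Klf15, Prodh, Bdh1 and, more faintly, Mcee and Aldh4a1.

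Genes at neighbouring steps numbered 44, of which 41 were tested. As deposited, 16 were lower, against 3.52% of all genes, and 7 higher, a smaller share than the 33.5% of all genes. After scaling 21 were lower, against 10.9%, and 4 higher, a share near the 8.78% of all genes. With 1 library also left out, the scaled count of those higher ran from 1 to 3, so not all of these calls held. Without the genes that are also on the fatty acid oxidation list below, 32 were tested. Of these 32, 7 were lower and 7 higher as deposited, and 12 were lower and 4 higher after scaling. Of the 9 genes listed as shared hydratases, dehydrogenases and thiolases, 7 were lower and 1 higher. Most of these also serve fatty acid oxidation. Acaa2, a mitochondrial thiolase, had a difference of -1.03 (SE 0.08, limma adjusted p = 0.000318). Hadha and Hadhb, subunits of the trifunctional protein of fatty acid oxidation, gave -0.80 (adjusted p = 0.000777) and -0.75 (adjusted p = 0.00116). The gene that rose was Abat, GABA transaminase, which was placed on this list although it is none of these kinds of enzyme. It also acts on the beta-amino acids of valine and pyrimidine breakdown. It went from 6.31, 6.26, 7.15 and 7.18 FPKM in WT to 17.9, 17.5, 18.2 and 13.2 FPKM in RBX2iCKO. Every RBX2iCKO library exceeded every WT library. The difference was 1.19 (SE 0.11, limma adjusted p = 0.000479), and 0.96 (adjusted p = 0.000768) after scaling.

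The electron acceptors of the acyl-CoA dehydrogenases, among them IVD, ACADSB, ACAD8 and GCDH, are the electron transfer flavoprotein and its oxidoreductase. All 3 genes were lower, with -0.48 (adjusted p = 0.00694) for Etfa, -0.60 (adjusted p = 0.00287) for Etfb and -0.54 (adjusted p = 0.00275) for Etfdh. Of 5 aminotransferase and glutamate genes, 3 were lower as deposited and 5 after scaling, against 3.52% and 10.9% of all genes. Abat, a transaminase that rose, is counted with the shared hydratases above and not here. Gpt, alanine aminotransferase, changed most, from 19.2, 20.4, 20.2 and 20.6 FPKM in WT to 11.9, 12.2, 12.1 and 12.5 FPKM in RBX2iCKO. The groups were far apart and tight, with a difference of -0.68 (SE 0.06, limma adjusted p = 0.000409). Got1, the cytosolic aspartate aminotransferase, gave -0.43 (adjusted p = 0.018), and Gpt2, the mitochondrial alanine aminotransferase, -0.27 (adjusted p = 0.0315). Glud1, glutamate dehydrogenase, did not pass as deposited, at -0.06 (adjusted p = 0.486).

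Transport and cofactor genes differed among themselves. Slc7a5, the light chain of the LAT1 transporter that brings branched-chain amino acids into cells, was at 1.63, 1.28, 1.81 and 1.87 FPKM in the WT libraries and 2.55, 2.57, 3.05 and 2.46 FPKM in RBX2iCKO. It was higher in RBX2iCKO by 0.47 (SE 0.10, limma adjusted p = 0.00837), and by 0.30 (adjusted p = 0.0474) after scaling. Its partner Slc3a2 gave 0.22 (adjusted p = 0.187) and the mitochondrial carrier Slc25a44 0.14 (adjusted p = 0.166), and the sign of both turned after scaling, to -0.02 and -0.08. Of 8 genes of cobalamin handling and biotin, 2 were higher and 1 lower as deposited, against 33.5% and 3.52% of all genes. Abcd4, a lysosomal cobalamin exporter, rose by 0.56 (SE 0.11, limma adjusted p = 0.00622), Btd, which recycles biotin, by 0.44 (adjusted p = 0.018), and Mmadhc, which directs cobalamin to its enzymes, was lower at -0.21 (adjusted p = 0.0429). After scaling Btd was at 0.22 (adjusted p = 0.203) and no longer passed, so 1 gene, Abcd4, was higher and 4 were lower. Of all genes, 8.78% were higher and 10.9% lower on that scale. Mtr, methionine synthase, did not pass as deposited, at -0.35 (adjusted p = 0.0626).

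Of 7 genes of ketone synthesis, transport and cytosolic use, 1 was lower and 2 higher as deposited, against 3.52% and 33.5% of all genes. Slc16a7, a monocarboxylate transporter, fell from 3.63 ± 0.402 to 2.12 ± 0.306 FPKM, a difference of -0.57 (SE 0.10, limma adjusted p = 0.00411). Slc16a1, a far more abundant monocarboxylate transporter of this list, averaged 65.7 FPKM in WT and 65.3 FPKM in RBX2iCKO. Its difference was -0.01 (limma adjusted p = 0.934) as deposited and -0.26 (adjusted p = 0.151) after scaling, and it was named after its values were seen. Bdh2, a cytosolic dehydrogenase, rose by 0.70 (SE 0.18, limma adjusted p = 0.0152), with replicate 3 far above its group. Bdh2 was barely expressed, with a WT mean of 0.465 FPKM (range 0.211 to 0.737) and an RBX2iCKO mean of 1.42 FPKM. Single libraries held 5 to 52 recovered fragments of this gene. The WT mean by itself lay under the filter of 0.5 FPKM, so the Bdh2 call rests on few fragments. Aacs, which activates acetoacetate in the cytosol, was higher as deposited by 0.33 (adjusted p = 0.0304). After scaling Aacs was at 0.18 (adjusted p = 0.218) and no longer passed, while Bdh2 and Slc16a7 still did. Of 4 tested genes of the lysine and proline paths, Aldh18a1, which starts proline synthesis, was higher as deposited at 0.38 (adjusted p = 0.0205) and at 0.18 (adjusted p = 0.202) after scaling. Dhtkd1, a dehydrogenase of lysine breakdown, gave 0.39 (adjusted p = 0.0952), and Aldh7a1, of lysine breakdown, 0.06 (adjusted p = 0.584). None of the 4 tested passed after scaling.

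**Figure D5:**
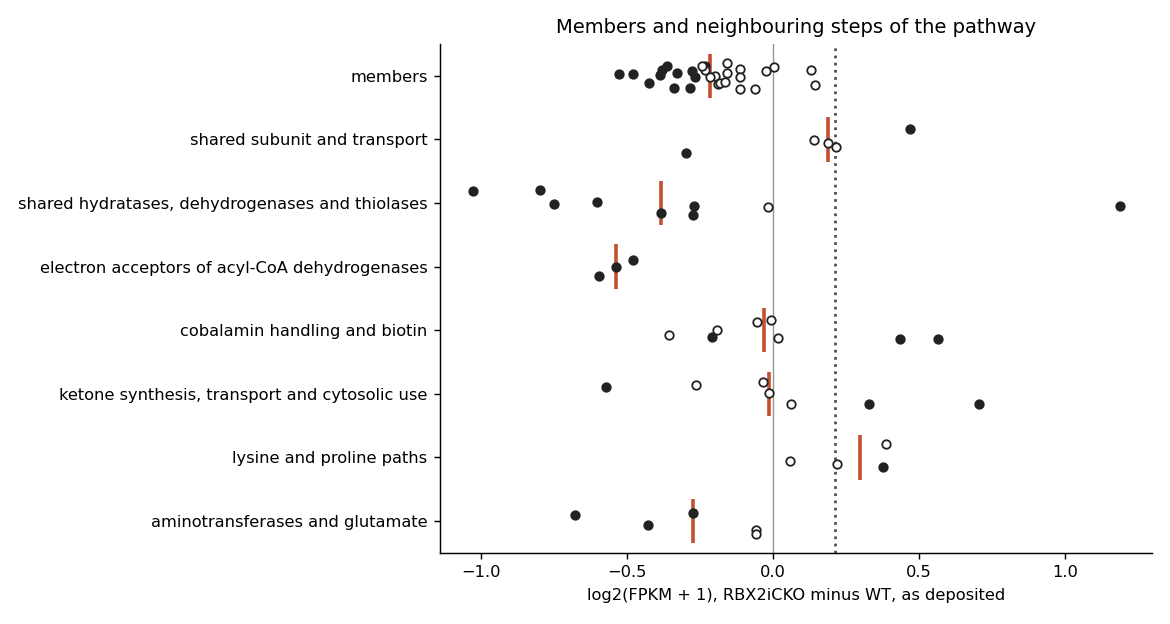
Log2 difference of each tested gene as deposited, for the members and for 7 lists of neighbouring steps (rows); filled points passed an adjusted p of 0.05, red bars mark list medians and the dotted line the median of all genes tested, 0.21. The members' median was -0.21, the electron acceptors' -0.54 and the shared hydratases' -0.38.

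Other fuel paths of the same mitochondria were read for comparison. Of all genes, 3.52% were lower and 33.5% higher as deposited, and 10.9% and 8.78% after scaling. Both lists share genes with the neighbouring steps above, so their counts are not separate from those. Of 20 fatty acid oxidation genes, 18 were lower and 1 higher as deposited, 18 were lower and none higher after scaling, with a median of -0.60 as deposited and -0.86 after scaling. Ech1, an isomerase of unsaturated fatty acid oxidation, gave -1.31 (adjusted p = 0.000205). Of 18 tricarboxylic acid cycle genes, 9 were lower as deposited and 17 after scaling, with medians of -0.26 and -0.52. Sdha, the catalytic subunit of succinate dehydrogenase, gave -0.39 (adjusted p = 0.00839). The members' medians were -0.21 and -0.46. The differences between these lists were not tested.

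Several members overlap a gene on the other strand, and the strand setting is not given in the sources used here, so their reads cannot be told apart in the shared bases. The longest such overlaps of members that passed as deposited were these. Exons of Bckdha share 1171 bases with B3gnt8, those of Aldh6a1 1078 bases with Bbof1 and those of Pcca 241 bases with Ggact. The partners were at 2.28, 0.699 and 4.92 FPKM in WT and 4.01, 1.07 and 6.06 FPKM in RBX2iCKO.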

How the data were processed

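Polyadenylated RNA of minced mouse ventricles was sequenced in 8 libraries, grouped by the genotype label (4 WT, 4 RBX2iCKO). The authors deposited 1 table of FPKM values for 35275 genes. The build, mm10, is from the submitters' processing notes. Which aligner, counter, annotation and strand setting were used is not given in the sources used here. Symbols and coordinates came from GENCODE M21, where 34490 identifiers (97.8%) were found. The members and gene lists were chosen with earlier results of these data known.

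Genes with a mean of at least 0.5 FPKM (13050) were tested on log2(FPKM + 1) with limma 3.58.1 in R 4.3.3 (eBayes with a trend, two-sided), with Benjamini-Hochberg adjustment over all of them and a threshold of 0.05. A fold change on that scale understates the change of low genes. Median-of-ratios scaling was the second scale. Low FPKM values are whole multiples of 1 fragment, so fragment totals and counts could be recovered, whole within 0.01 for 99.99% of tested genes. Limma voom on those fragments called 4480 genes higher and 467 lower. FPKM carries no other measure of depth. Pairs of libraries within a group differed beyond counting noise (chi-square per degree of freedom 10.8 to 63.3). Simulated data for this comparison held 13049 genes, 200 of them changed. The test called 79.1%, 95.5% and 98.5% of genes given a 1.5-fold, 2-fold and 4-fold change, and 12 genes given none. As deposited, every tested member changed by less than 1.5-fold, with Aldh6a1 the largest at 1.46-fold. Recovery at the members' own sizes of change was therefore not measured. The simulation used 1 dispersion, 0.00673, taken from the WT libraries, for both groups, and no shift of the median gene. Real RBX2iCKO pairs differed more (20.4 to 63.3) than WT pairs (10.8 to 21.4), so recovery in the real libraries may be lower.

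Named genes were every member, Rnf7, the 4 tested genes of smallest p in each neighbouring list with Hadhb, and 2 in each compared list. Some genes that the rule takes are left out of this account. Other names were chosen after their values were seen, Esr1 among them. Alternatives covered the pseudocount, the filter, scaling, mitochondrial-encoded genes, title numbers as a covariate, voom and leaving out each library; scaling together with leaving out a library other than RBX2iCKO replicate 3 was added after the data were seen. RefSeq promoters (GRCm38.p6) were matched by symbol. Plots were drawn with matplotlib 3.10.9, and tables made in Python 3.11.15 with scipy 1.17.1, numpy 2.4.6 and pandas 2.3.3.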

Additional observations from a re-analysis of the deposited data

Results flagged for a closer look

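In 10 of 126 groups of 4 libraries examined, 1 library lay far from the other 3 by Dixon's criterion, where chance alone gives about 1 in 20, or 6.3. Among the members, Mut was at 35.8 FPKM in WT replicate 3 and at 33.4 to 33.6 FPKM in the other WT libraries. Mmab was at 15.4 FPKM in WT replicate 1, above 13.9 to 14.0 FPKM in the others. Gcdh was at 21.3 FPKM in RBX2iCKO replicate 1, below 26.7 to 27.8 FPKM in the others.

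Among neighbouring genes, RBX2iCKO replicate 3 stood above its group for Bdh2 (2.30 FPKM), Dhtkd1 (3.38 FPKM), Got1 (395 FPKM), Gpt2 (13.5 FPKM) and Cdkn1a (36.7 FPKM), a cell cycle inhibitor that glucocorticoids also induce. Abat was at 13.2 FPKM in RBX2iCKO replicate 4, below its group, and Tsc22d3, a glucocorticoid-induced gene, at 33.1 FPKM in WT replicate 3, above its group. The causes were not tested.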

How the results depend on the processing

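Members higher numbered 0 under every alternative run. Members lower, 12 as deposited, numbered 24 after scaling, 26 after scaling without RBX2iCKO replicate 3 and 21 without mitochondrial-encoded genes. With 1 library left out the count ran from 6 to 13, and from 22 to 24 when scaled and 1 of the other 7 libraries left out. It was 12 with voom or a pseudocount of 0.1, 10 with no filter and 15 with title numbers as a covariate. All genes higher, 4374 as deposited, numbered 1146 after scaling, 1367 after scaling without RBX2iCKO replicate 3 and 2022 without mitochondrial-encoded genes, with 2895 to 4386 when 1 library was left out and 677 to 900 when scaled and 1 of the other 7 left out. All genes lower, 459, numbered 1419, 1463 and 713 in that order, with 327 to 452 and 979 to 1218. Neighbouring genes higher, 7, numbered 4, 2 and 4, with 5 to 7 and 1 to 3, and those lower, 16, ran from 12 to 15 and from 19 to 21. The causes were not tested.

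The sign turned in 7 of the genes named, none past the threshold as deposited. After scaling, and after scaling without RBX2iCKO replicate 3, the log2 difference was -0.10 and -0.31 for Klf15, -0.25 and -0.31 for Mcee, -0.10 and -0.43 for Prodh, -0.17 and -0.16 for Aldh7a1, -0.083 and -0.061 for Slc25a44, and -0.021 and -0.15 for Slc3a2. Without mitochondrial-encoded genes Mcee was at -0.12 and Aldh7a1 at -0.054, and with title numbers as a covariate Mcee was at -0.023 and Prodh at -0.024. Leaving out 1 library as deposited, or scaled with 1 of the 7 libraries other than RBX2iCKO replicate 3 left out, gave -0.13 to 0.26 for Klf15, -0.29 to 0.075 for Mcee, -0.21 to 0.38 for Prodh, -0.32 to 0.029 for Acad8, -0.20 to 0.10 for Aldh7a1, -0.13 to 0.19 for Slc25a44 and -0.080 to 0.29 for Slc3a2. No paired analysis was possible because the labels give the groups no shared replicate numbers. The number of libraries, 4 a group, limits the precision.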
